A study of Mus musculus with 6 samples.

Results

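The transcripts described here are those of 10 genes expressed late in neutrophil development: S100a8, S100a9, Ngp, Ltf, Camp, Lcn2, Retnlg, Mmp8, Mmp9 and Cd177. They were taken by gene symbol from a table of read counts for 24421 genes, and all 10 were present in it and passed the filter on low counts that left 13803 genes for testing. Each library was made from polyadenylated RNA of bone marrow from C57BL/6 mice of genotype Dek -/-, depleted of lineage-marked cells, with 3 libraries after vehicle and 3 after exogenous DEK. Both groups carry the Dek deletion and no library has wild-type marrow. Dek encodes a nuclear chromatin protein that can also be released from cells. The series' title sets the question of how the transcripts of these cells respond to the added protein. The marrow was flushed from femurs and passed over sequential depletion columns. The labels give no age, dose or duration of treatment, and do not say whether libraries of a group came from different animals. The p-values below therefore measure the spread between these libraries, which may be technical.

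Neutrophils fill their granules in the order in which they mature. Myeloblasts and promyelocytes make the primary granules with myeloperoxidase and serine proteases. Myelocytes and metamyelocytes make the secondary granules, with lactoferrin, the cathelicidin and lipocalin 2, and band cells the tertiary granules with gelatinase, while S100a8 and S100a9 build up in the cytosol. The transcription factor C/EBP epsilon is needed for secondary granule genes. Magnetic depletion of marrow targets antigens carried by most mature blood cells, neutrophils among them.

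Counts per library ran from 34875736 to 49128378. Dek itself had 863, 672 and 733 counts in vehicle replicates 1, 2 and 3 and 781, 869 and 712 in DEK replicates 1, 2 and 3. The labels do not say which exons were removed, so a count over the whole gene does not check the genotype. Progenitor markers were present, with Kit between 153.6 and 304.9 CPM (counts relative to library size, which was scaled by the trimmed mean of M values, TMM) and Mpo between 3672 and 5928 CPM. Among 10 erythroid markers, Hba-a1, Hbb-bt and Hbb-bs had 0 counts in every library. In that list 4 genes were at 0 in at least 1 library, and 6 were tested. Whether the zeros come from absent transcripts or from how reads that match several genes were counted was not tested. Ly6g, a neutrophil surface antigen, was not analysed here.

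The most abundant members encode the 2 subunits of calprotectin, a calcium- and zinc-binding heterodimer that neutrophils release at sites of inflammation. S100a9 (chromosome 3, 90692630 to 90695721, minus strand, mm10) had 120276, 90533 and 883517 counts in vehicle replicates 1, 2 and 3 and 114412, 96960 and 1053441 in DEK replicates 1, 2 and 3. In the libraries numbered 3 it had more counts than any other gene, whereas in the other 4 it ranked between 16 and 26. S100a8 (chromosome 3, 90669071 to 90670034, plus strand) stood at 1579, 1311 and 13570 CPM with vehicle and at 1666, 1247 and 12638 CPM with DEK. For both subunits the libraries numbered 3 were high in both groups, and the groups overlapped. Per exon length, S100a9 exceeded S100a8 by 1.15-fold to 1.29-fold in the libraries numbered 1 and 2 and by 1.45-fold and 1.44-fold in those numbered 3.

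The secondary granule genes followed the same pattern with different sizes. Ngp (chromosome 9, 110419808 to 110423012, plus strand), which encodes neutrophilic granule protein, had 1026, 1078 and 10442 CPM with vehicle and 1408, 984 and 8208 CPM with DEK. Camp (chromosome 9, 109847377 to 109849456, minus strand), the gene of the only mouse cathelicidin, an antimicrobial peptide, had 461, 430 and 3872 CPM with vehicle and 560, 488 and 3782 CPM with DEK. Ltf (chromosome 9, 111019292 to 111042766, plus strand), which encodes the iron-binding protein lactoferrin, had 155, 133 and 3648 CPM with vehicle and 231, 172 and 4001 CPM with DEK. Ltf was the member that differed most by replicate number, 25.4-fold higher in vehicle replicate 3 than in the mean of vehicle replicates 1 and 2 and 19.9-fold higher in DEK replicate 3 than in the mean of DEK replicates 1 and 2. Lcn2 (chromosome 2, 32384637 to 32387739, minus strand), the gene of lipocalin 2, which withholds iron from bacteria by binding their siderophores, had 236, 218 and 2289 CPM with vehicle and 396, 404 and 2889 CPM with DEK. Without number 3, both DEK values lay above both vehicle values for Lcn2, and likewise for Ltf, Camp, Mmp8 and Cd177, which makes 5 of 10 genes against 20.6% of all genes tested. Mmp8 (chromosome 9, 7558429 to 7568486, plus strand), the neutrophil collagenase gene, had 469, 537 and 2026 CPM with vehicle and 742, 575 and 2407 CPM with DEK. It was the member that differed least by replicate number, with 4.03-fold in the vehicle group and 3.65-fold in the DEK group. Cd177 (chromosome 7, 24743983 to 24760311, minus strand), which encodes a surface glycoprotein stored in secondary granules, had 148, 174 and 1184 CPM with vehicle and 198, 195 and 1275 CPM with DEK.

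The genes of the last stages showed the same split. Mmp9 (chromosome 2, 164948219 to 164955849, plus strand), the gelatinase of tertiary granules, had 139, 92.8 and 1446 CPM with vehicle and 139, 96.9 and 1794 CPM with DEK. Retnlg (chromosome 16, 48872608 to 48874498, plus strand), which encodes a resistin-like protein of mature neutrophils, had 229, 165 and 2525 CPM with vehicle and 218, 105 and 2713 CPM with DEK. DEK replicate 2 was the lowest library for Retnlg. No member's exons overlap those of another gene in the table.

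**Figure D1:**
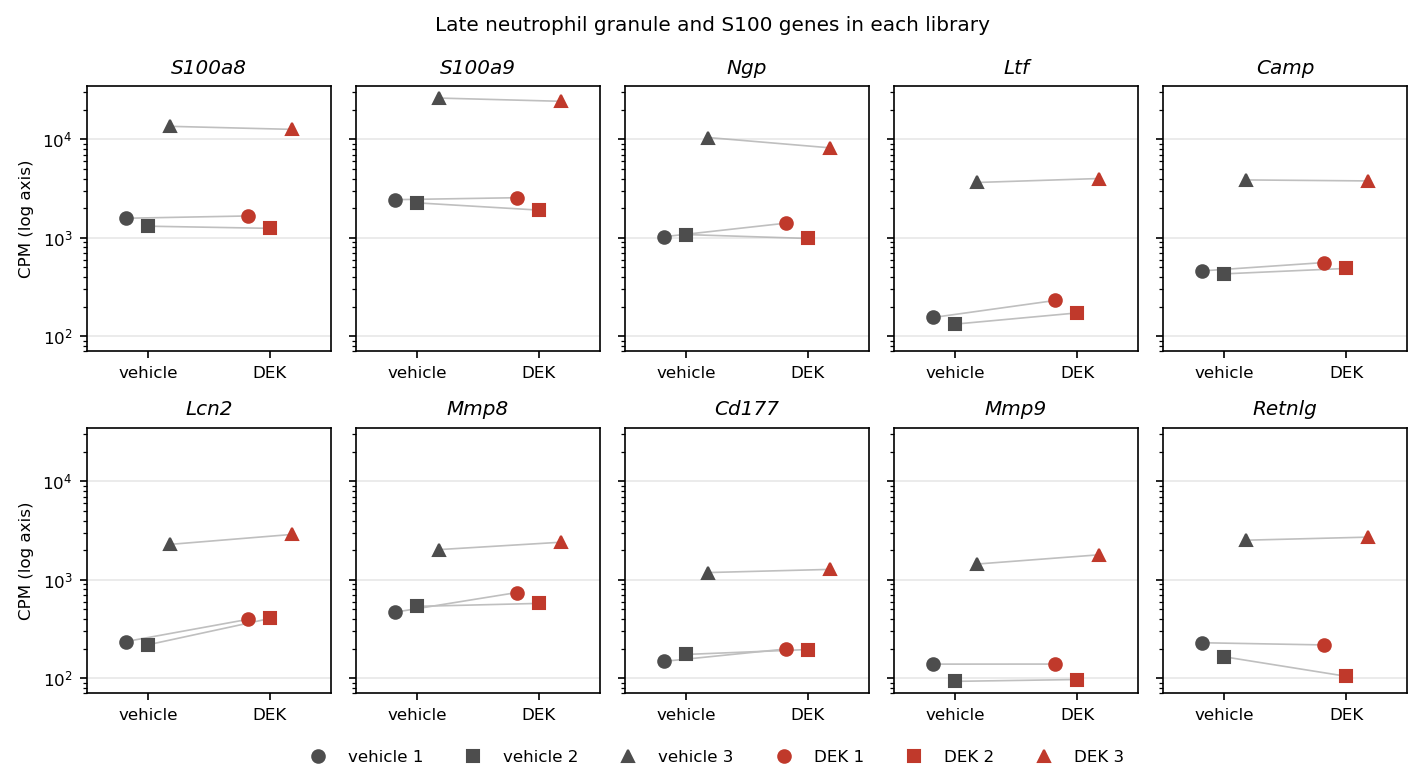
CPM on a log axis for each of the 10 genes, with 1 point per library, gray for vehicle and red for DEK, shaped by replicate number, and lines joining equal numbers. The triangles of number 3 stand above the circles and squares in every panel and both groups, while lines between vehicle and DEK are close to level for most genes.

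By CPM per kilobase of exon, S100a9, S100a8, Ngp and Camp held the first 4 places among the 10 in that order in 6 of 6 libraries. In vehicle replicate 1 they stood at 4654, 4029, 884 and 769 CPM per kilobase. The lower places were not fixed. Lcn2 was above Retnlg in DEK replicates 1 and 2 and below it in the other 4 libraries, and Ltf and Cd177 changed places between vehicle replicates 1 and 2. Mmp9 was last in the libraries numbered 1 and 2, at 29.2 to 43.8 CPM per kilobase, and Cd177 was last in those numbered 3, at 436 and 470 CPM per kilobase.

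The 250 bases before the start site were read for 9 of the 10 genes (all but Mmp9) from RefSeq promoters on GRCm38.p6, the assembly that mm10 stands for. Matches were sought on both strands to TTGCNNAA, a core of C/EBP sites, to GAGGAA, the core bound by PU.1, and to GGANTTTCC, an NF-kB site. No match overlapped another in the windows of the 9 genes. The C/EBP core was found in 6 of the 9 windows (S100a9, Ngp, Ltf, Lcn2, Retnlg and Mmp8), and 9.56% of 32851 RefSeq promoters hold it. The PU.1 core was found in 5 (S100a8, Ltf, Lcn2, Mmp8 and Cd177), against 23.3%, and the NF-kB letters in 0, against 1.07%. The 4 windows are shown because Lcn2 was the member called in the comparison within replicate numbers, Ltf and Mmp8 differed most and least by replicate number, and S100a9 was the most abundant. Each runs from the base farthest upstream to the last base before the start site, on the gene's strand, with motif matches in capitals.
Lcn2, chr2:32387740-32387989, minus strand: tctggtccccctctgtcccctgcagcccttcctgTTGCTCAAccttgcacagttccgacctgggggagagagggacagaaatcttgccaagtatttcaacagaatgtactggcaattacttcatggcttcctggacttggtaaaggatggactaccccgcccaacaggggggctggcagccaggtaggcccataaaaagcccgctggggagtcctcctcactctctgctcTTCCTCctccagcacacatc
Ltf, chr9:111019042-111019291, plus strand: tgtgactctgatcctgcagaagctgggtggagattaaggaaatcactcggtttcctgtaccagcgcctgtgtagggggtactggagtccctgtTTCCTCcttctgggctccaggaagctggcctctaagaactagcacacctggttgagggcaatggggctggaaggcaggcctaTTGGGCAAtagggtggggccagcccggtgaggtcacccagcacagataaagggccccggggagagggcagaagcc
Mmp8, chr9:7558179-7558428, plus strand: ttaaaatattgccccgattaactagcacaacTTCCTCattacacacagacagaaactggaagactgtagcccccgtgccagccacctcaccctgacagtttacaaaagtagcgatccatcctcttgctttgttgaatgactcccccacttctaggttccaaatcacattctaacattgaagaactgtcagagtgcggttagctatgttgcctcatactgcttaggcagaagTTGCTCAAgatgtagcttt
S100a9, chr3:90695722-90695971, minus strand: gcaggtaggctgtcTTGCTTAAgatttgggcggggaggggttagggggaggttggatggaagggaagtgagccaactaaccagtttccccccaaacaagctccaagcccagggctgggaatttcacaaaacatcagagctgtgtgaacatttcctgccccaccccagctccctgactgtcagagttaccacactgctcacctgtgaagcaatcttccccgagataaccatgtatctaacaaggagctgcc
Counted from the start site, the C/EBP core began at base -216 in Lcn2, -75 in Ltf, -19 in Mmp8 and -236 in S100a9, so its place differed between the 4. A match of letters is a description of the window and shows no binding.

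Replicate number 3 set all 10 genes apart in both groups. The log2 difference of number 3 from the mean of numbers 1 and 2 ran from 2.01 (Mmp8) to 4.67 (Ltf) with vehicle, with a median of 3.32, against a median of -0.01 over all genes tested. With DEK it ran from 1.88 (Mmp8) to 4.33 (Ltf), with a median of 2.99, against -0.02 over all genes tested. A difference of at least 2 was found for 10 of the 10 genes and 2.82% of all genes tested in the vehicle group, and for 9 of the 10 and 4.09% in the DEK group. Each group has 1 library with number 3, so these are differences between libraries, given with no test, and they were known when the genes were chosen. Numbers 1 and 2 were much closer to each other, with log2 differences (number 2 minus number 1) from -0.58 (Mmp9) to 0.23 (Cd177) with vehicle. With DEK they ran from -1.06 (Retnlg) to 0.03 (Lcn2), and 9 of the 10 genes were lower in number 2.

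Other cell markers also moved with number 3. The summed level of 9 eosinophil markers was 4736 and 3391 CPM in vehicle and DEK replicates 3 and 8141 to 14340 CPM in the other 4 libraries. The summed level of 9 B lineage markers was 113.8 and 141.5 CPM against 320.7 to 380 CPM, and that of 11 stem and progenitor markers 484.7 and 491.4 CPM against 840.5 to 1065 CPM. The summed level of 10 erythroid markers was higher, at 1981 and 3311 CPM against 591.8 to 842.6 CPM, although 3 globin genes of that list had no counts. Itgam encodes a lineage depletion antigen of myeloid cells, and its level was 1512 CPM in vehicle replicate 3, 1530 CPM in DEK replicate 3 and 653.7 to 687.9 CPM elsewhere. The part of these in the result was not tested, and in such bulk libraries more neutrophils and more of these transcripts per neutrophil cannot be told apart.

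Genes of other neutrophil stages were compared by lists. Of 21 further late granule and secreted genes, 19 were tested, and 18 of them were higher in number 3 with vehicle (median log2 difference 2.32) and 17 with DEK (median 2.05). By the mean of both groups, the largest differences were those of Stfa3 and BC100530, genes of the stefin A cluster of protease inhibitors, at 4.97 and 4.43 with vehicle and 4.37 and 4.53 with DEK. Both are uncertain because this cluster holds near-identical copies. Lyz2, the lysozyme gene that monocytes also express, had the lowest signed mean of both groups in this list, at -0.20 with vehicle and 0.05 with DEK. Among 16 receptors of mature neutrophils, 14 were higher with vehicle (median 1.98) and 16 with DEK (median 1.44), and the 2 with the highest mean of both groups were the chemokine receptor gene Cxcr1 (2.96 with vehicle and 4.08 with DEK) and the formyl peptide receptor gene Fpr1 (3.62 and 2.94). Selplg, the gene of a selectin ligand made by most leukocytes, had the lowest such mean, at -0.03 and 0.32.

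The primary granule genes lay closer to 0. Among 8, the median was 0.16 with vehicle and -0.18 with DEK, 6 were above 0 with vehicle and 2 with DEK. For Mpo, the myeloperoxidase gene, number 3 differed by -0.19 in the vehicle group and -0.68 in the DEK group. Ms4a3, a gene of granulocyte-monocyte progenitors, had 0.73 and 0.37, and Ctsc, which encodes the protease that activates granule serine proteases, had 0.20 and 0.45. Of the 14 transcription regulators of granulocytes, the median was 0.24 with vehicle and 0.26 with DEK. Mxd1, which encodes a MYC antagonist of differentiating cells, had 2.29 and 3.09, Klf5 1.15 and 1.16, and Irf8, a regulator of the monocyte lineage, -1.15 and -0.51. The 6 other S100 genes tested had medians of -0.07 with vehicle and -0.27 with DEK. S100a11 and S100a6, which encode widely expressed members of the family, had 1.16 and 0.93 with vehicle and 1.00 and 1.05 with DEK, and S100a4 -0.29 and -0.87.

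**Figure D2:**
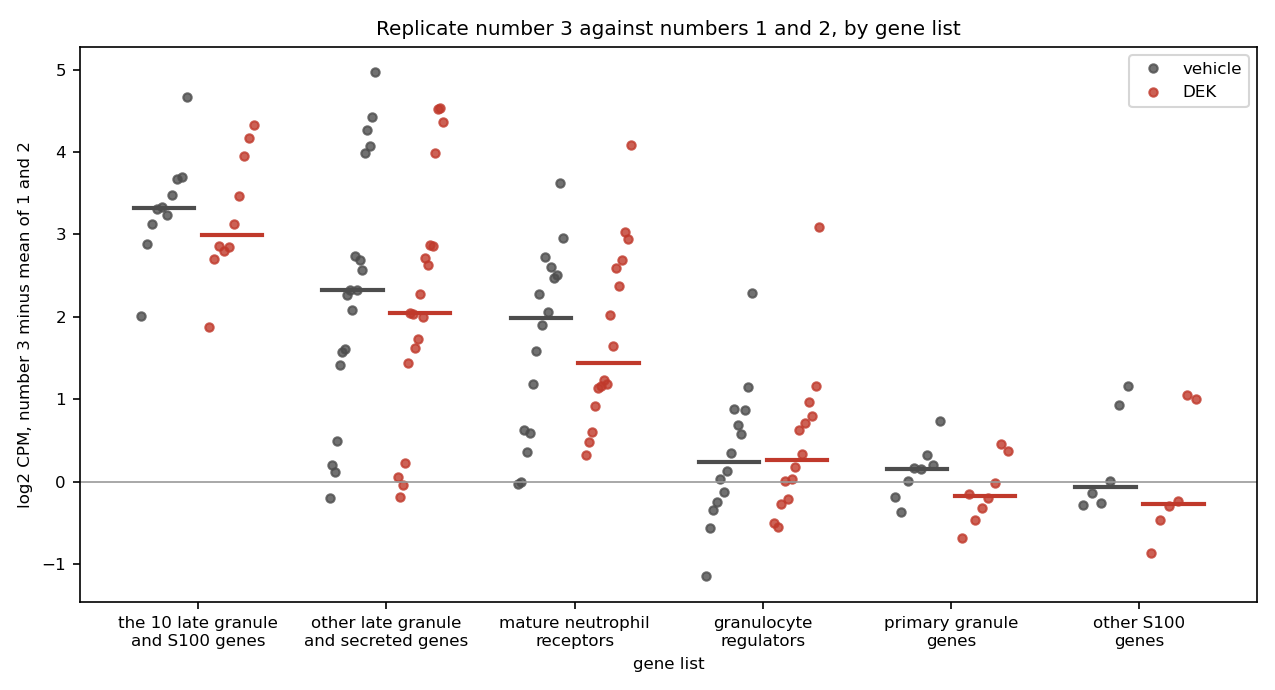
Log2 difference in CPM of replicate number 3 from the mean of numbers 1 and 2, with 1 point per gene, gray for vehicle and red for DEK, and bars at the medians. The 10 late genes have medians of 3.32 and 2.99, the medians of further late genes and mature receptors lie between, and primary granule genes lie around 0. Single further late genes lie above or below all of the 10.

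Genes with the most similar profile over the 6 libraries were sought among 9119 other genes averaging 10 CPM or more. Likeness was the root mean square distance, on the log2 scale, between a gene's values centred on their own mean and the mean centred values of the 10 genes. The 8 nearest were Pram1 (0.16), Ankrd22 (0.18), Nt5e (0.21), Mapk13 (0.21), Dhrs9 (0.24), Crispld2 (0.24), Gabbr1 (0.25) and Tnfsf13b (0.26). Pram1 encodes an adaptor of myeloid cells, Nt5e the ectonucleotidase CD73, Mapk13 a p38 kinase and Tnfsf13b the B cell survival factor BAFF. Pram1 had 24.6, 19.1 and 211 CPM with vehicle and 25.3, 18.6 and 171 CPM with DEK. Within the 10 genes, the distance from their mean was lowest for S100a8 at 0.11 and highest for Mmp8 at 0.64 and Ltf at 0.59, and 6 of the 10 (Mmp8, Ltf, Retnlg, Lcn2, Mmp9 and Cd177) lay farther from it than each of these 8 genes. Exons of Ankrd22 overlap Lipm on the opposite strand and its value is uncertain.

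DEK against vehicle gave no call for any of the 10 genes when replicate numbers were left out of the model. The log2 fold changes (DEK minus vehicle) ran from -0.24 (Ngp) to 0.43 (Lcn2), with a median of 0.10 against 0.00 over all genes. The mean of S100a9 was 10332 ± 13823 CPM in vehicle libraries against 9613 ± 12788 CPM in DEK libraries, and that of Lcn2 914 ± 1190 against 1230 ± 1437 CPM (± SD, n = 3 per group). For both genes the SD exceeded the mean in each group. By edgeR's quasi-likelihood test without a block, 0 of 13803 genes (0%) had an adjusted p under 0.05, and 360 had an unadjusted p under 0.05, 0 of them among the 10. DESeq2 called 51 genes and limma-voom 0, none of them among the 10, but DESeq2 gave no adjusted p for 8 of the 10. None of the 10 genes had groups that did not overlap (0 of 10), against 7.19% of all genes tested. The 10 genes together took 0.694, 0.673 and 6.48% of counts in vehicle replicates 1, 2 and 3 and 0.855, 0.638 and 5.76% in DEK replicates 1, 2 and 3. The mean share was 2.62 ± 3.35% in vehicle libraries and 2.42 ± 2.90% in DEK libraries (± SD, n = 3 per group), and a two-sided exact permutation test gave p = 0.8, with 0.1 the lowest possible for 3 against 3. Rn45s, a ribosomal RNA gene, took 4.89% of counts in vehicle replicate 1 and 0.159 to 0.331% in the other libraries. Without Rn45s in the total, the share in vehicle replicate 1 was 0.730%, and the same permutation test gave p = 0.8.

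Within pairs of equal replicate number, Lcn2 rose 1.58-fold (log2 fold change 0.66 ± 0.12, SE; 95% interval of the fold 1.32 to 1.89; adjusted p = 0.0206, edgeR with the replicate number as a block). It was higher with DEK in 3 of 3 pairs, 1.68-fold, 1.85-fold and 1.26-fold in pairs 1, 2 and 3. It was 1 of 10 members called, against 1.28% of all genes tested called in either direction and 0.869% called higher. Leaving out pair 1 or pair 2 ended the call (adjusted p = 0.144 and 0.735, edgeR), with log2 fold changes of 0.61 and 0.55. The fit without pair 1 still called 181 of 13916 genes, Lcn2 not among them. The fit without pair 2 called 0 of 14013 genes, with 675 at an unadjusted p under 0.05. Leaving out pair 3 gave 0.82 (adjusted p = 1.07e-08, edgeR), and without both libraries numbered 3, a setting chosen after the data were seen, and without a block it was also 0.82 (adjusted p = 0.00485, edgeR). With 2 pairs left, the p-values of the fit without pair 3 rest almost wholly on spread pooled across genes, not on the spread of each gene. That fit called 641 of 13809 genes.

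The other 9 genes did not pass within pairs. Unadjusted p-values by edgeR with the block were under 0.05 for 4 of the 10 genes, against 11.5% of all genes tested. These were Lcn2, Ltf, Mmp8 and Cd177. Ltf had a log2 fold change of 0.36 ± 0.11 (SE; adjusted p = 0.193, edgeR), with 0.57, 0.38 and 0.13 in pairs 1, 2 and 3. Without pair 3 it passed, at 0.48 (adjusted p = 0.0031, edgeR), as 1 of 2 members called higher there, against 2.37% of all genes. Ltf did not pass without both libraries numbered 3 and without a block, at 0.49 (adjusted p = 0.216, edgeR). Mmp8 had 0.34 ± 0.12 (SE; adjusted p = 0.276, edgeR), Cd177 0.23 ± 0.10 (adjusted p = 0.414), Camp 0.14 ± 0.11 (adjusted p = 0.668) and Mmp9 0.13 ± 0.10 (adjusted p = 0.695). For the calprotectin genes the intervals of the fold spanned 1. S100a8 had a fold of 0.978 (95% interval 0.824 to 1.16; adjusted p = 0.945, edgeR) and S100a9 of 0.936 (95% interval 0.78 to 1.12; adjusted p = 0.816, edgeR). Ngp had a fold of 0.994 (95% interval 0.786 to 1.26; adjusted p = 0.991, edgeR), with pair differences of 0.46, -0.13 and -0.35 on the log2 scale. Retnlg had a log2 fold change of -0.21 ± 0.14 (SE; adjusted p = 0.642, edgeR), with -0.07, -0.66 and 0.10 in pairs 1, 2 and 3. Lcn2, Ltf, Mmp8, Mmp9 and Cd177 were higher with DEK in all 3 pairs, 5 of 10 against 16.3% of all genes tested, and 0 of the 10 were lower in all 3. The same 5 were found with scaling by library totals or by the median of ratios. With library totals, the differences in pair 3 were only 0.007 for Cd177 and 0.034 for Ltf. For Mmp9 the difference in pair 1 was only 0.002 with TMM scaling. The count of 5 rests on the replicate numbers, and the labels do not say what a number shares. Matched crosswise, Mmp9 was lower in DEK replicate 2 (96.9 CPM) than in vehicle replicate 1 (139 CPM). In numbers 1 and 2, both DEK values lay above both vehicle values for Lcn2, Ltf, Mmp8 and Cd177. For these genes either matching gave the same direction.

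**Figure D3:**
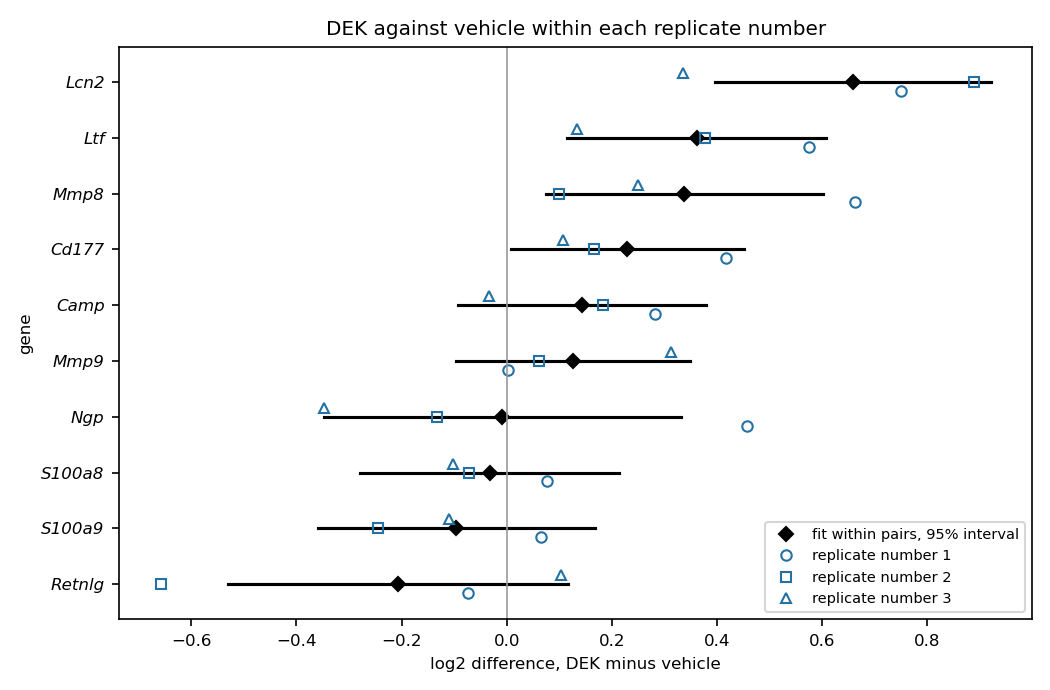
Log2 difference of DEK minus vehicle for each of the 10 genes, with open symbols for the 3 pairs of equal replicate number and a diamond with a 95% interval for the fit within pairs. Lcn2 lies highest at 0.66 with 3 of 3 pairs above 0, and the intervals of S100a8, S100a9, Ngp, Camp, Mmp9 and Retnlg span 0.

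The proportions of the 10 transcripts to one another were not constant. S100a8 and S100a9 made up 58.4, 55.8 and 59.2% of the 10 genes' counts in vehicle replicates 1, 2 and 3 and 52.0, 51.1 and 57.8% in DEK replicates 1, 2 and 3. The share of Ltf was 2.07 to 2.84% in the libraries numbered 1 and 2 and 5.42 and 6.24% in those numbered 3. The share of Mmp8 went the other way, from 6.81 to 9.31% in the libraries numbered 1 and 2 to 3.01 and 3.76% in those numbered 3. The ratio of Mmp9 to Mmp8 counts was 0.168 to 0.296 in numbers 1 and 2 and 0.713 and 0.745 in number 3, and that of Ltf to Camp counts 0.309 to 0.412 and 0.942 and 1.06. The share of Lcn2 was nearly the same in the 3 vehicle libraries, at 3.43, 3.41 and 3.40%, and was 4.88, 6.54 and 4.51% in DEK replicates 1, 2 and 3. Relative to the mean log2 level of the other 9 genes, Lcn2 was higher with DEK by 0.48, 0.91 and 0.30 in pairs 1, 2 and 3. This ratio lay between -0.90 and -0.87 in the vehicle libraries and between -0.60 and 0.04 in the DEK libraries. It was examined because Lcn2 had passed, so it is no separate evidence.

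**Figure D4:**
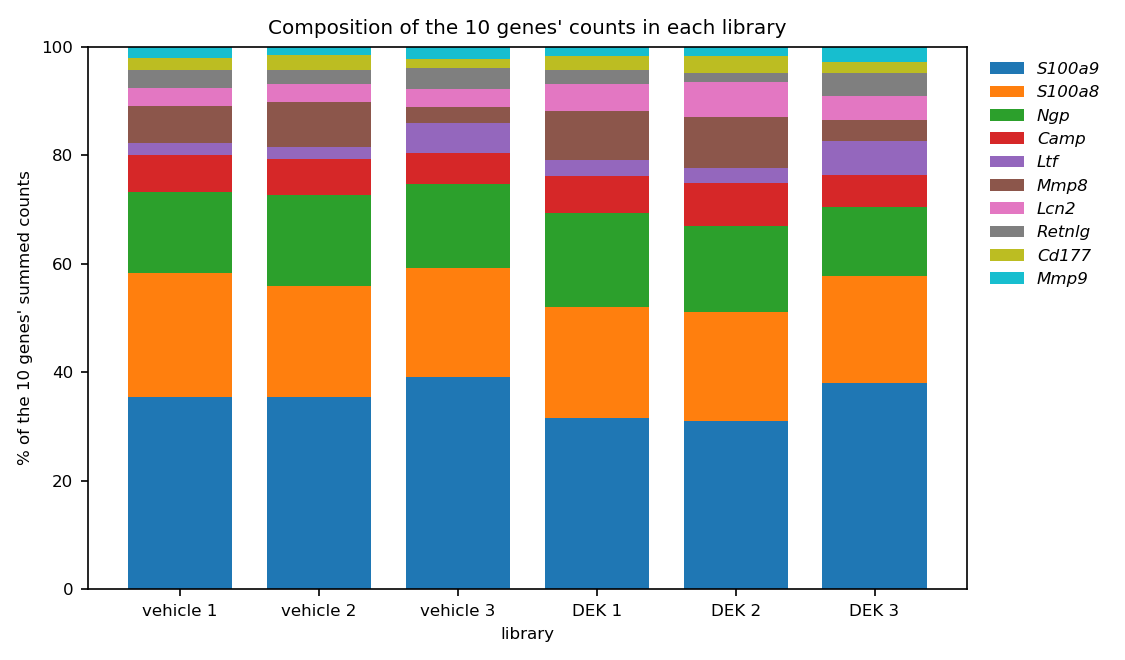
Share of each gene in the summed counts of the 10 genes, in percent, as stacked bars for the 6 libraries. Ltf takes 5.42 and 6.24% in the libraries numbered 3 and less than 2.85% in the others, and Lcn2 takes 4.51 to 6.54% in the DEK libraries and 3.40 to 3.43% in the vehicle libraries.

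Among the further late granule and secreted genes, 3 of 19 rose within pairs and 0 fell, with a median log2 fold change of 0.21 against 0.00 over all genes. Of all genes tested, 0.869% were called higher within pairs and 1.28% in either direction. Hp, the gene of the haemoglobin-binding protein haptoglobin, had 739, 757 and 1049 CPM with vehicle and 1211, 1820 and 1735 CPM with DEK, so that the groups did not overlap, and rose 1.87-fold (adjusted p = 0.00739, edgeR). Slpi, which encodes an inhibitor of neutrophil elastase, had 327, 294 and 355 CPM with vehicle and 567, 584 and 503 CPM with DEK and rose 1.70-fold (adjusted p = 0.00739, edgeR), although exons of Mir7678 overlap it on the same strand. Lrg1, the gene of a leucine-rich glycoprotein of granules and plasma, rose 1.55-fold (adjusted p = 0.013, edgeR). Without pair 2, where edgeR called no gene, the folds of Hp, Slpi and Lrg1 were 1.66, 1.58 and 1.44 (adjusted p = 0.366, 0.483 and 0.504), and without pair 1 or pair 3 all 3 passed. Hp and Slpi differed little by replicate number, at 0.49 and 0.20 with vehicle and 0.23 and -0.19 with DEK, whereas Lrg1 stood 2.69 and 2.63 higher in number 3.

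Of the 16 receptors of mature neutrophils, 1 rose within pairs and 0 fell, where 1.28% of all genes tested were called in either direction. Trem1, a receptor that amplifies inflammatory signals, rose 1.45-fold (adjusted p = 0.0339, edgeR), with 1.43-fold without pair 2 (adjusted p = 0.658) and 1.37-fold without pair 3 (adjusted p = 0.084). Of the 8 primary granule genes, 0 rose and 1 fell. Cd63, a tetraspanin of granule and endosome membranes that many cells make, fell 1.36-fold (adjusted p = 0.0415, edgeR), and was 1.33-fold lower without pair 1 (adjusted p = 0.199) and 1.31-fold lower without pair 2 (adjusted p = 0.778). Of the 14 transcription regulators 1 rose, Cebpd, at 1.55-fold (adjusted p = 0.0107, edgeR), which stood at 1.45-fold without pair 2 (adjusted p = 0.486) and is uncertain because its exons overlap Spidr on the opposite strand.

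Among 14 tested receptors and partners of the members' products, 1 rose and 0 fell, against 1.28% of all genes called in either direction. Myd88, the adaptor through which toll-like receptors that bind calprotectin signal, rose 1.35-fold (adjusted p = 0.0418, edgeR), with 1.40-fold without pair 1 (adjusted p = 0.106) and 1.31-fold without pair 2 (adjusted p = 0.751). Ager, the gene of another calprotectin receptor, had 1.20, 1.03 and 19.2 CPM with vehicle and 0.357, 0.552 and 17.1 CPM with DEK, so it followed replicate number by 4.06 and 5.13 on the log2 scale. Itln1, an intelectin gene, differed by 2.46 and 2.88, and P2rx7, an ATP-gated channel gene, by -0.74 and -0.53. Of the 10 tested metalloproteinases and inhibitors, 0 passed by edgeR within pairs and 4 had an unadjusted p under 0.05, against 11.5% of all genes tested. The smallest p-values were those of Mmp2, at 0.65 on the log2 scale (adjusted p = 0.0696), and of the inhibitor gene Timp2, at -0.72 (adjusted p = 0.167). Reck and Mmp27 were higher in number 3, by 1.84 and 1.20 with vehicle and 2.26 and 2.25 with DEK, and Mmp2 was lower, by 0.92 and 0.58. Of the 6 other S100 genes 0 passed by edgeR within pairs and 1 had an unadjusted p under 0.05, with S100a11 at 0.39 (adjusted p = 0.0986) and S100a4 at 0.15 (adjusted p = 0.725).

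Some markers of other myeloid cells also passed the test within pairs, which called 1.28% of all genes tested in either direction. Macrophage markers had 0 of 9 higher and 3 lower, with summed levels of 796.6 to 998.4 CPM with vehicle and 641 to 892.5 CPM with DEK. Monocyte markers had 2 of 8 higher and 0 lower, with sums of 6200 to 8241 and 6848 to 10040 CPM, and eosinophil markers had 0 of 9 higher and 2 lower, with sums of 4736 to 14340 and 3391 to 11210 CPM. Without pair 2 none of these 7 called markers passed (adjusted p from 0.452 for Mertk to 0.847 for Prg3, edgeR). Without pair 1 the macrophage genes Mertk (adjusted p = 0.0798) and C1qc (adjusted p = 0.171) and the monocyte gene Ly6c2 (adjusted p = 0.127) did not pass. None of the markers on these 3 lists was at 0 in any library. The lineage depletion antigens had 1 of 6 genes higher, Ly6c2, and 0 lower. Their part in the changes of Lcn2, Hp and Slpi was not tested.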

How the data were processed

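RNA was measured in 6 libraries, 3 vehicle and 3 DEK. The deposited values are raw read counts per gene. Per the file headers, the authors made them with featureCounts 1.6.1 over exons on mm10, with no strand option, from lane 6. The submitters' processing notes name Trim Galore, STAR, HTSeq and edgeR. Per the labels' protocols the kit was strand-specific, but the recorded command sets no strand, so reads of overlapping antisense genes cannot be told apart. Reads carry no molecular identifiers.

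Of 18049 genes with a read, 13803 passed filterByExpr. Counts were scaled by TMM (R 4.3.3, edgeR 4.0.16) and tested across all genes by the quasi-likelihood test with robust dispersion, two-sided, Benjamini-Hochberg threshold 0.05, with and without the replicate number as a block. Log2 CPM used a prior count of 2. limma 3.58.1 and DESeq2 1.42.0 were alternatives. The scripts were tested on simulated data. Standard errors come from the F statistic.

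Replicate numbers were taken as pairs because deviations from group means correlated across genes by 0.55, 0.56 and 0.80 for numbers 1, 2 and 3, above the 0.1 set as a minimum. The labels do not say what a number shares. Vehicle 2 with DEK 1 also reached 0.52, and vehicle 1 with DEK 2 reached 0.41. Because number 3 stood apart in both groups, centring on group means moves numbers 1 and 2 the same way. The check therefore cannot tell pairs 1 and 2 from the same libraries matched crosswise.

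The genes and lists were chosen with earlier results of these data known. Named were the 10 genes; per list, called genes (at most 4) or the 2 smallest p, and the 2 largest and 1 smallest differences by number; and the 8 most alike genes. Alternatives were scaling, filter, tool, block and left-out libraries.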

Additional observations from a re-analysis of the deposited data

How the results depend on the processing

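Without a block, edgeR called 0 genes. The count was 177 with the replicate block, 51 with DESeq2 and 168 without both libraries numbered 3, a setting added after the data were seen, and from 0 to 641 over the fits that leave out 1 library or 1 pair. The summed share of the 10 genes (DEK minus vehicle, -0.20 percentage points) went from -1.87 without DEK replicate 3 to 1.73 without vehicle replicate 3.

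For the 10 genes, 124 of 170 log2 fold changes under 17 alternatives kept their direction and their side of the threshold, where DESeq2 gave no adjusted p for 8 genes, which are counted by direction alone. In fits on all 6 libraries, reversals were those of Retnlg (-0.21 with the replicate block, -0.031 with library totals only and -0.22 with limma-voom) and Camp (-0.048 with library totals only). Without both libraries numbered 3, Retnlg (-0.29), S100a8 (0.014) and Ngp (0.187) were reversed. Over fits that leave out 1 library or 1 pair, values ran from -1.92 to 1.84 for S100a8, -2.22 to 2.03 for S100a9, -1.81 to 1.75 for Ngp, -2.71 to 3.35 for Ltf, -1.61 to 1.86 for Camp, -1.20 to 2.44 for Lcn2, -2.60 to 2.36 for Retnlg, -0.62 to 1.31 for Mmp8, -2.25 to 2.55 for Mmp9 and -1.36 to 1.79 for Cd177. Each range is set by the fits without vehicle replicate 3 or DEK replicate 3 alone. Within pairs, the block added the call of Lcn2 and no other among the 10. The lowest count of any of the 10 genes in a library was 3712.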
